A study of Mus musculus with 55 samples.

Results

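H3K4me1 and H3K4me3 were compared within lung PRMK tumours through 4 CUT&Tag peak lists, 2 libraries of each mark. CUT&Tag is an antibody-directed assay that cuts and tags DNA beside a chromatin mark. Peaks of the 4 lists that shared at least 1 bp were joined, which gave 51236 regions. A region was called H3K4me1 only when both H3K4me1 libraries and neither H3K4me3 library had a peak in it, H3K4me3 only in the opposite case, and both marks when all 4 libraries had one. The rule gave 18219 regions with H3K4me1 only (35.6% of all regions), 7818 with H3K4me3 only (15.3%) and 3963 with both marks (7.73%). The remaining 21236 regions (41.4%) had a mark in 1 of its 2 libraries and are called mixed.

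The whole series holds 55 mouse samples of small cell lung cancer models, 26 of them with peak lists. PRMK stands for lung organoids with guides against Rb1 and a further gene, an MSCV vector that expresses Myc, and a guide against Kmt2c, and the tumours grew in recipient mice after injection into the left lung lobe. All 4 libraries list these constructs, on organoids harvested from the recipients. H3K4me1 replicates 1 and 2 list no further guide. H3K4me3 replicate 1 also lists a guide against Meis2 and H3K4me3 replicate 2 a scrambled guide, so the mark and the added guide cannot be told apart. The labels give no age of the mice and do not say that the replicates came from separate animals.

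Lysine 4 of histone H3 carries 1, 2 or 3 methyl groups. H3K4me1 is the usual mark of enhancers and of the flanks of active promoters, and KMT2C, a methyltransferase of the COMPASS family, is known for placing it at enhancers. H3K4me3 marks the starts of active or poised genes, most of all those rich in CpG dinucleotides. Small cell lung cancer is a neuroendocrine tumour that commonly lacks RB1 function.

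The promoter sequences of 6 genes show the kinds of start that the classes hold. Each is the 250 bases before the RefSeq start on GRCm38.p6, written 5′ to 3′ on the strand of the gene, with every CpG dinucleotide in capitals. Neurog3, a neurogenic and endocrine transcription factor, and Cldn4, a tight junction claudin, had H3K4me1 only within 1 kb of the start. Kmt2c and the homeobox gene Meis2 had H3K4me3 only. Chga, which encodes the secretory granule protein chromogranin A, and Krt7, a simple-epithelium keratin, had both marks.
Neurog3 (chr10:62132840-62133089, plus strand): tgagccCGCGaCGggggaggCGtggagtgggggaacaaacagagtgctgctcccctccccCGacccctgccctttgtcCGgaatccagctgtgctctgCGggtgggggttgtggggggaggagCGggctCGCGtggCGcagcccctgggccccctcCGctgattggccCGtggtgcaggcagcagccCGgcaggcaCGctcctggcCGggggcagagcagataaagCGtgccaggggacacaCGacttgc
Cldn4 (chr5:134946935-134947184, minus strand): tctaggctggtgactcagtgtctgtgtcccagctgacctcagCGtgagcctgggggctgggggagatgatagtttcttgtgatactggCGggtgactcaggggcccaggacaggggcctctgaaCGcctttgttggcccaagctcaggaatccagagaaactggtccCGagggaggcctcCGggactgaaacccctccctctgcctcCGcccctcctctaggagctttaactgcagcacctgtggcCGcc
Kmt2c (chr5:25498784-25499033, minus strand): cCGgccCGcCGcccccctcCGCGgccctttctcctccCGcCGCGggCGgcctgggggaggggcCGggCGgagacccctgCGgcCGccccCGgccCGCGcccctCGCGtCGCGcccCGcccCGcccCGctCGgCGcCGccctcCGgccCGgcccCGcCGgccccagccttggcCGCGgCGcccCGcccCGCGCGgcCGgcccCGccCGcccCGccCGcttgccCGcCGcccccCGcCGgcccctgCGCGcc
Meis2 (chr2:116064620-116064869, minus strand): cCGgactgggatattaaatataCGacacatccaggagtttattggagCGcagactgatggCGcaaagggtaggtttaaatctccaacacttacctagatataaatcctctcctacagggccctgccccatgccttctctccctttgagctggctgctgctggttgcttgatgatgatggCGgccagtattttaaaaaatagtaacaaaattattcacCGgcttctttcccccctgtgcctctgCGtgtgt
Chga (chr12:102554691-102554940, plus strand): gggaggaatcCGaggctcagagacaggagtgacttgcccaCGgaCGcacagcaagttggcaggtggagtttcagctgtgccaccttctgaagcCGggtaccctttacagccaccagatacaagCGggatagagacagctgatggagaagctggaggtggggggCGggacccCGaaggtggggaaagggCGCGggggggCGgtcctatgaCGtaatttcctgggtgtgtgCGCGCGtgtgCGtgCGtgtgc
Krt7 (chr15:101412153-101412402, plus strand): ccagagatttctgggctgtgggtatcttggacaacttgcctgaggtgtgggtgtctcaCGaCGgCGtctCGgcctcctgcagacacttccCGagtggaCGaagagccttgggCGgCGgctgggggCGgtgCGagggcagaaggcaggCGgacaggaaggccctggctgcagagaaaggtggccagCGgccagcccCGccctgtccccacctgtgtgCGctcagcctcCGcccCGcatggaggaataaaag
Over the 250 bases printed there were 18 CpGs before Neurog3, 7 before Cldn4, 48 before Kmt2c, 7 before Meis2, 16 before Chga and 16 before Krt7. The class medians given further on use 300 bases, which also hold the first bases of the gene. Over those, Neurog3 had 19 CpGs against a median of 5 at H3K4me1-only starts. Meis2 had 13 against a median of 22 at H3K4me3-only starts and 13 over all promoters. Single genes thus depart from the class medians. Both H3K4me1 libraries covered part of the printed bases of Neurog3, Cldn4 and Krt7, and 1 of the 2 covered those of Chga. Both H3K4me3 libraries covered those of Kmt2c, Meis2, Chga and Krt7.

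The marks differed in number, width and spread of peaks. The H3K4me1 lists held 38074 and 36910 peaks in replicates 1 and 2, and the H3K4me3 lists 17097 and 14561. H3K4me1 peaks covered 148 and 77.4 Mb of the genome, against 65.6 and 57.8 Mb for H3K4me3. The median H3K4me1 peak was 2734 bp wide in replicate 1 and 1419 bp in replicate 2, while the median H3K4me3 peak was 3405 and 3542 bp. Both H3K4me1 medians lay below both H3K4me3 medians, and the H3K4me1 libraries differed from each other by more than the H3K4me3 libraries did. With the same number of peaks in each library, 14561 taken by highest total signal, the order turned, with mean medians of 3904 bp for H3K4me1 and 3637 bp for H3K4me3. Total signal adds up over a peak, so this choice favours wide peaks, while it keeps every peak of H3K4me3 replicate 2.

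The difference between the H3K4me1 libraries bears on every count of H3K4me1 that follows. In replicate 2, 21.6% of peaks were under 1 kb wide, against 0.948% in replicate 1. Of the replicate 1 peaks 62.0% met a replicate 2 peak, and 86.1% in the opposite direction. The H3K4me3 libraries met each other at 83.8% of replicate 1 peaks and 98.6% of replicate 2 peaks. Mixed regions were mainly regions of H3K4me1 alone, with 11817 found in replicate 1 only and 4556 in replicate 2 only, against 1331 and 63 for the H3K4me3 libraries. Read from one H3K4me1 library, the H3K4me1-only class held 30199 regions without replicate 1 and 30115 without replicate 2. Since 2 libraries can be set against 2 in 3 ways, the smallest p of an exact permutation test is 0.333, and counts, shares and medians are described without a test. Regions of one library share their source and are not replicates.

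The broadest peaks occurred with both marks. Peaks over 10 kb made up 4.96% and 1.15% of the H3K4me1 lists and 1.84% and 1.92% of the H3K4me3 lists. The widest peak of each library had 92429 and 90139 bp for H3K4me1 and 87372 and 87396 bp for H3K4me3. The H3K4me1 peak of this width lay at Pitpnm2, a gene for a phosphatidylinositol transfer protein family member, and the H3K4me3 peak of this width lay over the Hoxb cluster.

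Regions of the 3 classes lay in different places. Only 4.99% of H3K4me1-only regions came within 1 kb of the start of a protein-coding gene, against 82.6% of H3K4me3-only regions and 72.4% of regions with both marks. H3K4me1-only regions lay in the body of a gene in 61.8% of cases and between genes in 33.2%. For H3K4me3 only these shares were 7.00% and 10.4%, and for both marks 17.5% and 10.2%. H3K4me1-only regions away from a start were a median of 38.0 kb from the nearest one. Regions with both marks were widest, with a median of 8056 bp, against 3436 bp for H3K4me1 only and 3716 bp for H3K4me3 only. A region joined from 4 lists tends to be wider than one joined from 2 by construction. With equal peak numbers, a choice that favours wide peaks, H3K4me1-only regions had 5231 bp, above the 3956 bp of H3K4me3-only regions. Over 20 kb there were 83 H3K4me1-only regions, 1 H3K4me3-only region and 295 with both marks.

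**Figure D1:**
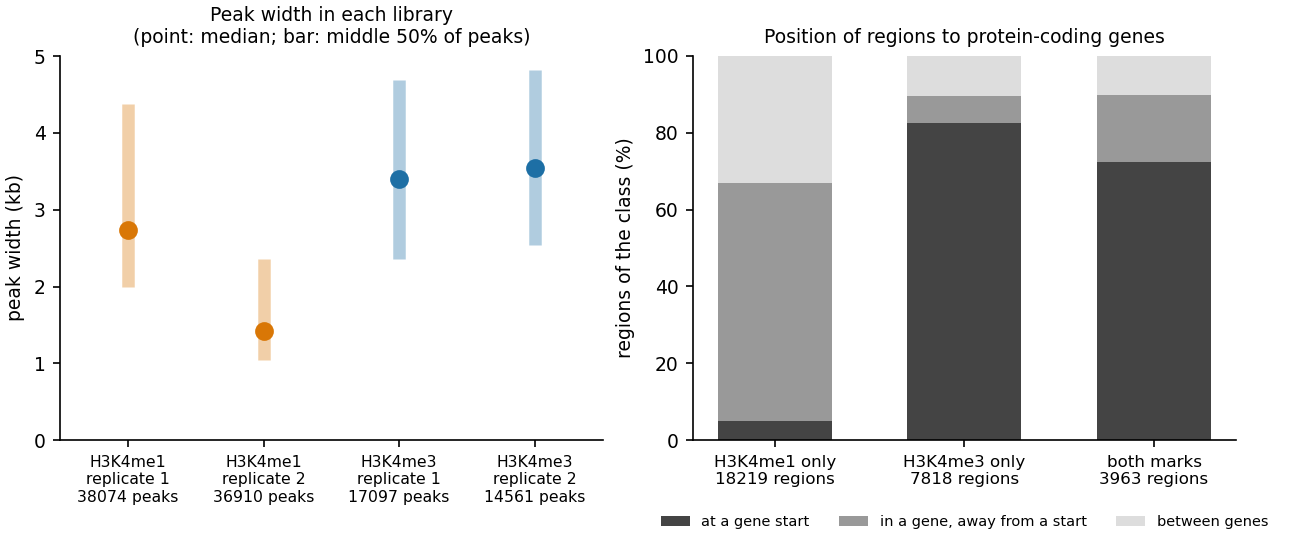
Left, peak width in kb in each of the 4 libraries, with the median as a point and the middle 50% of peaks as a bar, H3K4me1 in orange and H3K4me3 in blue. Right, the percentage of regions of each class at a protein-coding gene start (within 1 kb), in a gene away from its start, and between genes. The H3K4me1 medians of 2.7 and 1.4 kb lie below the H3K4me3 medians of 3.4 and 3.5 kb, and the dark share at gene starts is small for H3K4me1 only and large for the other classes.

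The 2 marks took different positions around a start. Across 17492 protein-coding genes whose start and strand are in the promoter table, a peak of H3K4me1 covered the start itself in 10.1% of genes in replicate 1 and 4.42% in replicate 2. An H3K4me3 peak covered it in 57.5% and 55.2%. H3K4me1 cover was highest downstream, at 17.8% of genes 2100 bp after the start in replicate 1 and 8.10% at 3000 bp in replicate 2. H3K4me3 cover was highest within 200 bp after the start, at 57.6% and 55.3%, and was 38.6% and 37.0% at 2000 bp after it. At 2000 bp before the start H3K4me1 cover was 9.06% and 4.00%, and H3K4me3 cover 19.5% and 17.7%. H3K4me1 was thus more frequent 2000 bp after the start (17.7% and 7.91%) than at the same distance before it in both libraries.

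**Figure D2:**
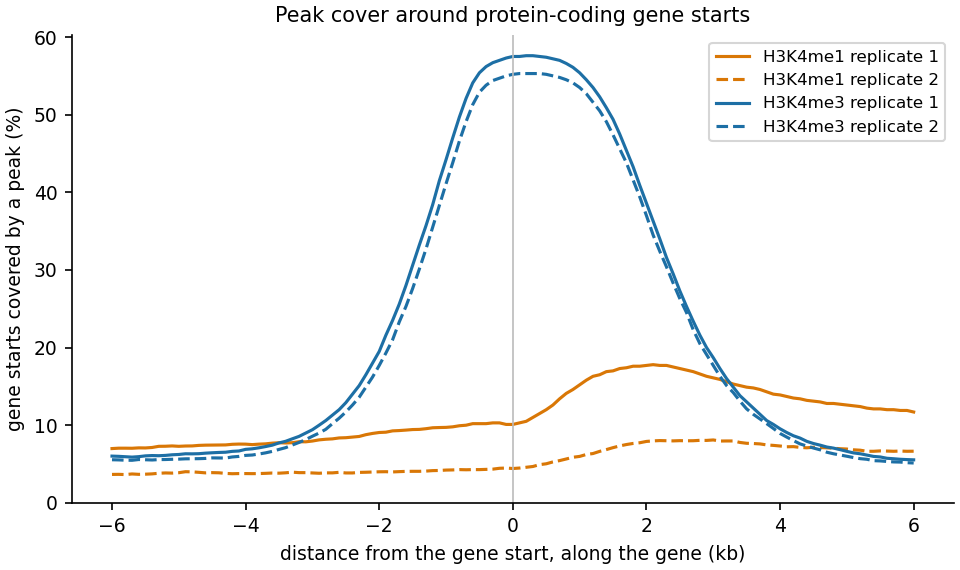
Percentage of 17492 protein-coding gene starts covered by a peak (y axis) against distance from the start in kb along the gene (x axis), with H3K4me1 in orange, H3K4me3 in blue, replicate 1 as a solid line and replicate 2 as a dashed line. H3K4me3 forms a single rise over the start to 57.6% and 55.3%, and H3K4me1 reaches its maxima of 17.8% and 8.10% at 2100 and 3000 bp after it.

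Within the 3963 regions that held both marks, peaks overlapped only in part. H3K4me1 covered 68.0% of the H3K4me3-marked bases in the replicate 1 libraries and 43.2% in the replicate 2 libraries, where the numbers pair a library of each mark by number alone. H3K4me1 ran past the H3K4me3 peaks on one side in 54.4% and 52.0% of these regions, on both sides in 31.9% and 17.0%, and on neither side in 13.7% and 31.0%. There was no shared base in 28 and 340 regions, which were joined through the other libraries. Among mixed regions, 2106 held H3K4me3 in both libraries with H3K4me1 in 1, and 982 the reverse. A further 381 held each mark in 1 library. By definition no single-mark region holds a peak of the other mark. The gaps to it were not set against the spacing that peak number alone would give. The median gap from an H3K4me1-only region to the nearest H3K4me3 peak was 34.2 and 42.8 kb, and that from an H3K4me3-only region to the nearest H3K4me1 peak was 26.1 and 39.3 kb.

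Signal was read only within a library, as a multiple of the median peak of that library, because the deposited signal scales are not stated to be comparable. The highest signal in H3K4me1-only regions had a median of 1.38 and 1.07 times the H3K4me1 library median, and in regions with both marks 1.43 and 1.13 times. H3K4me3 peaks showed the opposite order, with 1.26 and 1.05 times the H3K4me3 library median in H3K4me3-only regions and 1.07 and 0.894 times in regions with both marks. H3K4me3 peaks were wider in regions with both marks, at a median of 4512 and 4371 bp, than in H3K4me3-only regions, at 3408 and 3256 bp. Their total signal was therefore slightly higher with both marks (1.34 and 1.09 times) than with H3K4me3 only (1.18 and 0.959 times).

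The strongest H3K4me1-only regions by total signal were long blocks, and 7 of the 8 did not reach a protein-coding start. Their length is in part a product of the ranking, since total signal adds up over a peak. The region nearest Mical2, an actin-oxidising monooxygenase gene, spanned 44781 bp at chr7:112261688-112306468, 35.9 kb from its start, with a total signal of 139 and 110 times the library median. The region nearest Ptpn14, a phosphatase gene of the Yap pathway, spanned 59477 bp at chr1:189750632-189810108 and had 155 and 94.2 times. One near Nfatc2, a calcium-regulated transcription factor gene, spanned 30523 bp at chr2:168537815-168568337 with 86.7 and 95.9 times. Chromosome 11 held 5 of the 8 strongest, nearest to Ccdc182, Msi2 (an RNA-binding protein gene, with 2 regions), Ntn1 (the guidance cue netrin-1) and Engase. Of H3K4me1-only regions as a whole 7.66% lay on chromosome 11.

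The strongest H3K4me3-only regions spanned 7124 to 28212 bp, against a class median of 3716 bp. Except for 1 of 8, they lay at gene starts. Total signal adds up over a peak, so a ranking by it favours wide regions. Sin3a, which encodes a histone deacetylase scaffold, carried a 9646 bp region at chr9:57069401-57079046 with 9.35 and 8.92 times the library median. Slbp, the histone mRNA stem-loop binding protein gene, shared a 12838 bp region at chr5:33649273-33662110 with Tmem129 and Tacc3, with 8.34 and 8.03 times. Ing2 and Ing1, which encode readers of H3K4me3, had 7.52 and 7.20 times and 6.36 and 5.78 times. The widest H3K4me3-only region, 28212 bp at chr13:22018156-22046367, covered the starts of 5 replication-dependent histone genes. The exception was a region 21.9 kb from the olfactory receptor gene Olfr1423.

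Among the strongest regions with both marks, 3 of the first 4 were far from any protein-coding start and narrow. These were chr1:24611531-24616190, 24.1 kb from Col19a1, chr17:39842899-39848878, 102 kb from Esp38, and chr2:98666237-98667335, 2348 kb from Lrrc4c. Their highest signals were 180 and 212, 16.8 and 29.9, and 511 and 569 times the H3K4me1 library medians, against 11.5 and 13.5, 5.47 and 4.40, and 24.4 and 14.9 times the H3K4me3 library medians. The sequence of these regions was not read, and what they share was not tested. The fourth, at Sfi1 on chromosome 11, spanned 27544 bp.

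The other strongest and widest regions with both marks were broad. Prox1, a homeobox gene of endocrine and lymphatic lineages, lay in a 58413 bp region at chr1:190120348-190178760 with H3K4me1 at 122 and 129 times and H3K4me3 at 9.81 and 5.99 times the library medians. Bahcc1, which encodes a BAH-domain chromatin protein, lay in one of 57226 bp with H3K4me1 at 75.4 and 57.8 times and H3K4me3 at 10.6 and 9.49 times. The widest, 96314 bp at chr6:94607145-94703458, included the start of Lrig1, a gene for a negative regulator of ErbB receptors. In it the strongest H3K4me1 peak spanned 74105 and 34954 bp and the strongest H3K4me3 peak 11952 and 10732 bp. At Lrig1 and Pitpnm2 the H3K4me1 peak was thus several times wider than the H3K4me3 peak, and the opposite held at the Hoxb cluster.

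The Hoxb cluster, a run of homeobox genes that pattern the body axis, was the longest H3K4me3 block. The region spanned 88116 bp at chr11:96269243-96357358 and touched the starts of 8 genes from Hoxb9 to Hoxb2. A single H3K4me3 peak covered 99.2% of it in each library. H3K4me1 covered 64.5% of it in replicate 1 through 8 peaks and 43.9% in replicate 2 through 14 peaks. A gap in H3K4me1 fell at the start of Hoxb8, which had H3K4me3 only within 1 kb of it. Hoxb6 was also called H3K4me3 only, and Hoxb9, Hoxb7, Hoxb5, Hoxb3 and Hoxb2 both marks. For Hoxb9, Hoxb6, Hoxb5, Hoxb3 and Hoxb2 either gene end was taken as a start. H3K4me1 called there can thus lie at the other end of the gene.

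**Figure D3:**
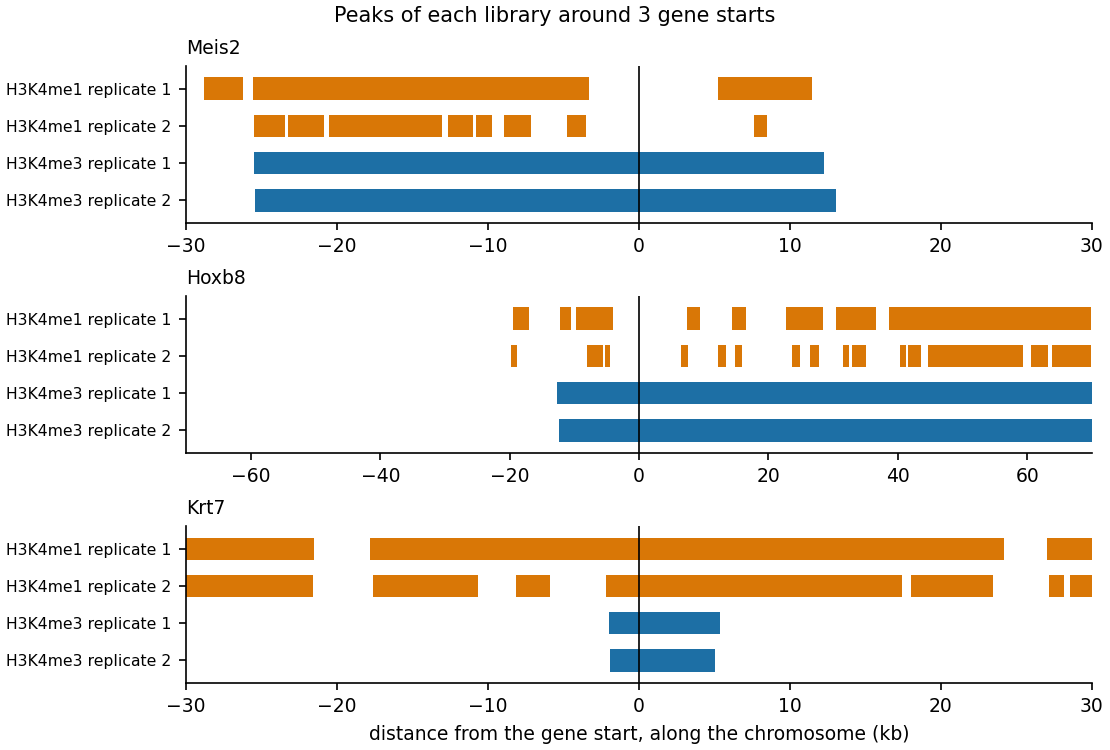
Peaks of the 4 libraries (bars, H3K4me1 in orange above H3K4me3 in blue) by distance in kb from the start of Meis2, Hoxb8 and Krt7 along the chromosome, each start drawn as a vertical line. H3K4me3 is a single block over Meis2 and Hoxb8 with H3K4me1 absent at the start, while at Krt7 H3K4me1 reaches well past a narrow H3K4me3 peak on both sides.

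Meis2 had the same arrangement on a smaller scale. One H3K4me3 peak of 37778 bp in replicate 1, the library listing a Meis2 guide, and 38447 bp in replicate 2 spanned the gene start. Its total signal was 16.2 and 14.2 times the library median. H3K4me1 covered 74.0% and 47.9% of the same 38589 bp region, and its nearest peak edges were 3.29 and 3.54 kb from the start on one side and 5.20 and 7.63 kb on the other. Meis2 RNA was present in all libraries, in TPM (counts per length of the gene, scaled to one sum in each library) at 31.9, 47.5 and 61.4 in PRMK, 28.8, 28.7 and 20.9 in PRMK with a Meis2 guide and 33.4, 28.6 and 29.4 in PRMK with a scrambled guide.

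Other edited or expressed genes of the model were also read. Rb1, Myc and Kmt2c had H3K4me3 only within 1 kb of a start, in both libraries. The H3K4me3 peak at Kmt2c was 5379 and 5686 bp wide with 3.90 and 3.31 times the library median. A guide-made mutation does not delete a promoter, so these peaks check no edit. Dnmt3a, the de novo DNA methyltransferase gene, was the exception with both marks, counted over the 3 starts that the promoter table gives it. Its strongest H3K4me1 peak near any of them was 12459 and 8173 bp wide with 16 and 14.7 times the library median. Its strongest H3K4me3 peak was 3925 and 1732 bp wide with 1.77 and 0.977 times, and lay at a different start. The region with both marks at that start spanned 7752 bp. H3K4me1 covered 4265 bp of it in replicate 1 and 4914 bp in replicate 2. Dnmt3a also had 7 H3K4me1-only regions within 50 kb of its starts.

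Over the starts of all 21887 protein-coding genes, H3K4me1 only was rare. It occurred at 551 starts (2.52%), H3K4me3 only at 8181 (37.4%), both marks at 1762 (8.05%) and neither at 7810 (35.7%), and 3583 starts were mixed. H3K4me1 was present in both libraries at 2449 starts (11.2%) and H3K4me3 at 12312 (56.3%). Of those 12312 starts with H3K4me3, H3K4me1 was present at 31.2% by replicate 1 and 16.7% by replicate 2. Replicate 1 alone had it at 2077 of them and replicate 2 alone at 292, and these starts count as mixed. Without H3K4me1 replicate 2, both marks were called at 3839 starts and H3K4me1 only at 958. For 4395 genes without an entry in the promoter table, either gene end was taken as a start.

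Starts of the classes differed in base composition. The 300 bases from 250 before to 50 after the start held a median of 5 CpGs at H3K4me1-only starts, 22 at H3K4me3-only starts, 20 with both marks and 3 with neither, against 13 over all promoters in the table. At least 10 CpGs were present in 18.8% of H3K4me1-only, 89.0% of H3K4me3-only and 80.9% of both-mark promoters, and in 57.2% of all. The letters TATAAA, on the strand of the gene within 50 bases before the start, were present in 6.90% of H3K4me1-only, 0.986% of H3K4me3-only and 1.85% of both-mark promoters, and in 3.55% of all. H3K4me1-only starts thus lay near starts with neither mark in these 2 shares, which were 12.1% and 6.92% with neither. By median GC content they did not, at 55.0% for H3K4me1 only, 46.3% with neither mark and 56.3% over all promoters.

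RNA levels of the genes followed H3K4me3 at the start. In PRMK libraries 1 to 3 the median gene with H3K4me1 only had 1.46, 1.11 and 1.61 TPM, and the median gene with H3K4me3 only 25.2, 24.1 and 24.3 TPM. With both marks it had 29.5, 26.2 and 30.8 TPM, and with neither 1.19, 1.03 and 1.04 TPM. The means of these medians were 1.39 ± 0.257, 24.5 ± 0.586, 28.8 ± 2.37 and 1.09 ± 0.0896 TPM (SD, n = 3 each). The PRMK table lists 60.8%, 95.4%, 93.0% and 20.4% of the genes of these classes, so its low classes are represented by their listed genes. A Kmt2c guide is not among the constructs that the labels give for the PRMK RNA samples.

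In the fuller table of the lines with an added guide, the same step between classes was seen. With a Meis2 guide the means were 0.120 ± 0.00802 TPM for H3K4me1 only, 14.6 ± 1.48 TPM for H3K4me3 only and 11.5 ± 1.07 TPM for both marks (SD, n = 3 each). With a scrambled guide they were 0.107 ± 0.0107, 13.5 ± 0.321 and 10.7 ± 0.361 TPM (SD, n = 3 each). The median gene with neither mark was at 0 in all 6 libraries. Genes with both marks thus stood above H3K4me3-only genes in all 3 PRMK libraries and below them in all 6 others. The order held when the scrambled-guide libraries were read over the genes of the PRMK table alone, at 11.9 TPM with both marks and 14.3 TPM with H3K4me3 only.

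**Figure D4:**
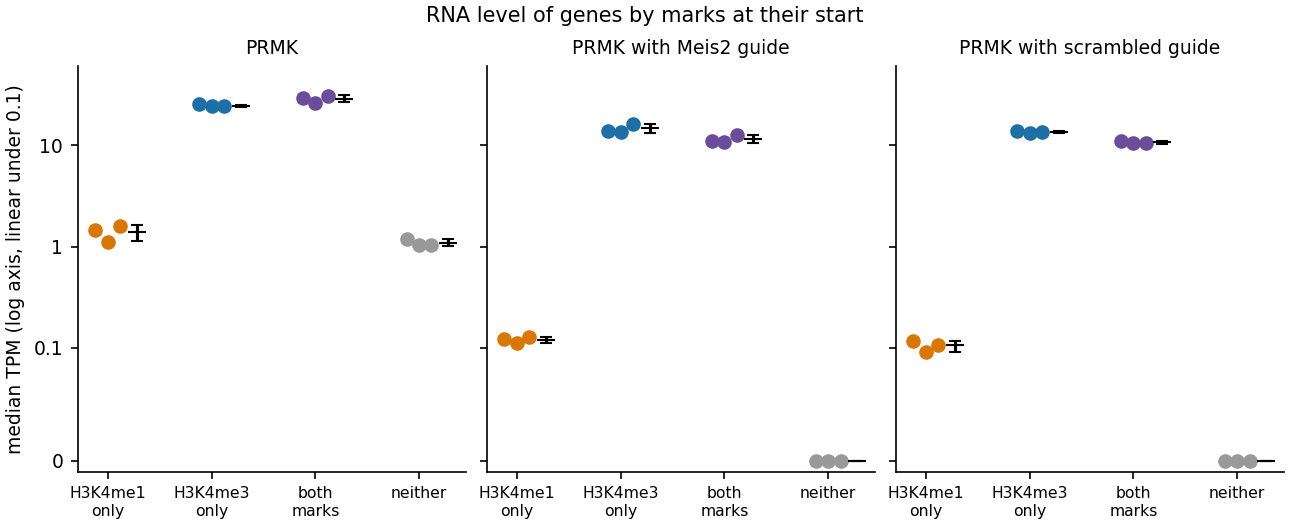
Median TPM of protein-coding genes (y axis, log scale, linear under 0.1) by the marks at their start (x axis), with a coloured point per RNA library and a black dash with error bar for the mean and SD of 3 libraries. H3K4me3-only and both-mark genes sit near each other, from 10.4 to 30.8 TPM, and above H3K4me1-only and unmarked genes in every library.

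H3K4me1-only regions were also counted around gene starts. Within 50 kb of the start, 76.6% of genes with both marks had at least 1 such region, against 41.4% with H3K4me3 only and 19.6% with neither, and 40.7% of all. At least 5 such regions were found at 13.9%, 2.00% and 1.04% of these genes. H3K4me1-only starts (97.9% and 26.0%) include the region at the start itself. Among H3K4me3-only genes, those with 1 to 4 such regions had a median of 29.4, 28.4 and 29.8 TPM in PRMK, against 22.9, 21.8 and 21.4 TPM for those with none. The 129 genes with 5 or more had 25.1, 23.3 and 22.8 TPM, so the level did not climb with their number. In the scrambled-guide libraries those with 5 or more had 11.3, 10.7 and 10.7 TPM, below the 13.3, 12.6 and 12.5 TPM of genes with none.

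Regions of the 3 classes were then set against measures that the classes did not use. H3K4me2, the intermediate methylation state, had a peak in 43.9% and 25.6% of H3K4me1-only regions (replicates 1 and 2), against 99.0% and 97.4% of H3K4me3-only regions and 99.7% and 99.3% of regions with both marks. KMT2C itself had a peak in 67.0% and 62.2%, 78.2% and 76.8%, and 94.6% and 94.1% of these classes. Open chromatin by ATAC in replicate 2 was found in 24.9%, 53.7% and 78.0%. ATAC replicate 1 held 593 peaks in all, against 54201 in replicate 2, and gave 0.148%, 1.62% and 4.26% in the same order of classes. KMT2C replicates 1 and 2 held 187682 and 134561 peaks although their labels list a Kmt2c guide, and the H3K4me2 and KMT2C replicates carry the same pair of added guides as the H3K4me3 libraries.

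Width enters these shares, since a wide region meets more peaks. Within the central 1 kb of each region KMT2C was found in 48.5% and 45.3% of H3K4me1-only regions, 66.9% and 67.1% of H3K4me3-only regions and 68.3% and 68.7% of regions with both marks. The excess of regions with both marks over H3K4me3-only regions was thus under 2 percentage points by this measure. For H3K4me2 the central 1 kb gave 39.9% and 23.0%, 98.9% and 97.3%, and 94.0% and 93.2%. For ATAC replicate 2 it gave 14.2%, 47.8% and 46.1%.

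**Figure D5:**
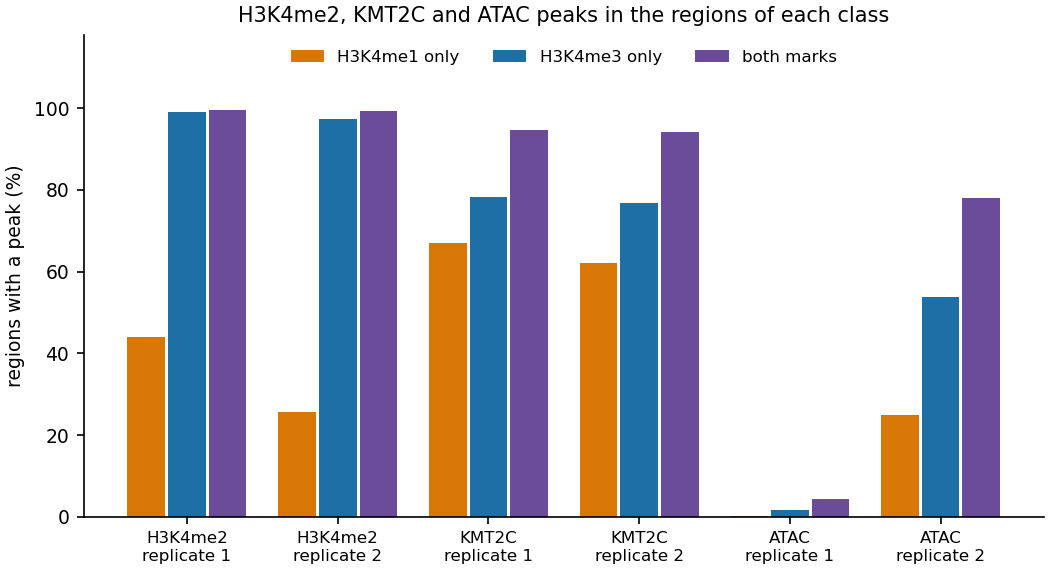
Percentage of regions with a peak (y axis) of H3K4me2, KMT2C and ATAC in each lung PRMK replicate (x axis), for regions with H3K4me1 only (orange), H3K4me3 only (blue) and both marks (purple). The orange bar is lowest in every library and the purple bar highest.

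Several neuroendocrine transcription factor genes held both marks. Of 26 genes listed as neuroendocrine or lineage factors, 9 had both marks, 5 H3K4me3 only, 1 H3K4me1 only, 4 neither and 7 were mixed. Both marks thus reached 9 of 26 beside 8.05% of all starts, and H3K4me1 in both libraries 11 of 26 beside 11.2%. These lists were drawn up with results of these data known, and 5 of the 26 genes had a start taken from either gene end. Insm1, a zinc-finger factor of neuroendocrine differentiation, had H3K4me1 peaks of 6815 and 5969 bp at 15.8 and 14.2 times the library median, and H3K4me3 peaks of 12019 and 12546 bp at 5.48 and 4.19 times. Hes6, a Notch-pathway inhibitor gene, had H3K4me1 at 12 and 12.8 times and H3K4me3 at 4.23 and 3.37 times.

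Nkx2-1, the lung lineage factor gene, Sox4 and Sox11 had H3K4me3 only, with the Nkx2-1 peak at 14542 and 14691 bp. Neurod1, the factor of a small cell subtype, had a single H3K4me3 peak of 1941 bp in replicate 2 at 0.120 times the library median, and 0.215, 1.25 and 1.73 TPM in PRMK. Neurog3 had H3K4me1 only, at 4.74 and 3.12 times, with 11.2, 0.145 and 17.5 TPM in PRMK and at most 0.590 TPM in the scrambled-guide libraries. The PRMK libraries thus disagreed among themselves on Neurog3.

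Neuroendocrine effector genes, which make secretory and synaptic proteins, had H3K4me3 almost throughout. H3K4me3 was present in both libraries at 26 of 28 starts (92.9%), beside 56.3% of all starts. H3K4me3 only was present at 11, near the 37.4% of all starts, and both marks at 5, beside 8.05%, and 12 were mixed. The 5 with both marks were Chga, Calca, Dll3, Ddc and Celf3. Ddc, the aromatic amino acid decarboxylase gene, had H3K4me1 peaks of 34092 and 17684 bp at 67.8 and 53.9 times the library median, and H3K4me3 peaks of 7639 and 7040 bp at 2.26 and 0.714 times. Chga had H3K4me1 at 36.4 and 27.4 times and H3K4me3 at 2.66 and 1.54 times. Their RNA reached 1188, 876 and 929 TPM for Ddc and 1054, 903 and 1495 TPM for Chga in PRMK. Chgb, the related granule protein gene, Syp (synaptophysin) and Scg3 had H3K4me3 only, and Chgb RNA was at 399, 302 and 331 TPM. High RNA of a neuroendocrine gene thus occurred with and without H3K4me1 at its start.

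Epithelial adhesion and keratin genes had the highest share of H3K4me1 among the lists. It was present in both libraries at 9 of 18 starts, beside 11.2% of all starts. For 7 of the 18 genes either gene end was taken as a start, against 4395 of all 21887 genes. A gene with 2 ends read has more room for a peak, so this enters the share and its rank. Both marks were present at 6, beside 8.05%, H3K4me1 only at 3, beside 2.52%, and H3K4me3 only at 5, beside 37.4%. Krt7 had H3K4me1 peaks of 42030 and 19597 bp at 95.8 and 83.2 times the library median, and H3K4me3 peaks of 7380 and 6989 bp at 2.82 and 1.84 times. Krt8, another keratin gene of simple epithelia, had H3K4me1 at 34.8 and 29.3 times and H3K4me3 at 2.89 and 2.40 times. Krt19, Cldn4 and Ehf, an epithelial Ets factor gene, had H3K4me1 only. Cldn4 was not listed in the PRMK RNA table and had 0, 0 and 0.0605 TPM with the scrambled guide, and Krt19 0, 0.0442 and 0 TPM. Ehf had 11.8, 3.09 and 31.7 TPM in PRMK against at most 0.600 TPM with the scrambled guide. Epcam, the epithelial adhesion molecule gene, had H3K4me3 only.

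Genes of H3K4 methylation and demethylation mostly had H3K4me3 without H3K4me1 at their starts. Of 18 genes of the methyltransferase complexes, 11 had H3K4me3 only, beside 37.4% of all starts, and 4 were mixed, beside 16.4%. Neither mark was present at 2, beside 35.7% of all starts, and both marks at 1, Kmt2b, beside 8.05%. H3K4me1 in both libraries thus reached 1 of 18 (5.56%), beside 11.2% of all starts, and the 4 mixed genes, Kmt2d, Rbbp5, Pagr1a and Psip1, had it in 1 library. The 2 with neither mark, Ash2l and Ncoa6, had RNA in every PRMK library, at 49.7, 57.1 and 38.9 TPM and at 54.0, 47.3 and 49.1 TPM. Whether another start of these genes carries a mark was not tested. Over all genes, 166 of 8532 with at least 10 TPM in every PRMK library (1.95%) had neither mark at the start. All 5 listed demethylases, Kdm1a, Kdm1b, Kdm5a, Kdm5b and Kdm5c, had H3K4me3 only, beside 37.4% of all starts. DNA methylation genes had both marks at 5 of 14 starts, beside 8.05% of all starts, among them Dnmt3a, Uhrf1 and Tet3.

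Housekeeping and growth genes had H3K4me3 without exception. All 76 cytosolic ribosomal protein genes, 30 cell cycle genes and 15 immediate early genes listed had H3K4me3 in both libraries, beside 56.3% of all starts. Both marks were present at 9, 7 and 4 of them, beside 8.05% of all starts. H3K4me1 only was present at none of them, beside 2.52% of all starts. In the Notch and Yap list, 17 of 20 genes had H3K4me3 in both libraries, and the median gene had 0.674 TPM with the scrambled guide. Notch1 had H3K4me1 peaks of 23031 and 11416 bp at 33.5 and 11.9 times the library median, and H3K4me3 peaks of 3933 and 4119 bp at 0.523 and 1.00 times, with 1.42, 0.964 and 1.04 TPM in PRMK.

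Developmental factors outside Hox were spread over all classes. Of 64 such genes, 28 (43.8%) had neither mark, near the 35.7% of all starts, and 16 were mixed, beside 16.4%. H3K4me3 only was present at 11, beside 37.4% of all starts. Both marks were present at 5, near the 8.05% of all starts, and H3K4me1 only at 4, beside 2.52%. The 4 were Pax6, Sox17, Lhx3 and Cdx2, which specify eye and brain, endoderm, pituitary and motor neurons, and intestine. Lhx3 had H3K4me1 at 2.93 and 2.55 times the library median and 9 H3K4me1-only regions within 50 kb, and at most 0.458 TPM in PRMK. Of 39 Hox genes 20 had neither mark, beside 35.7% of all starts. The 8 with H3K4me3 in both libraries, beside 56.3% of all starts, were all in the Hoxb cluster. Among TALE homeobox genes, the partners of Hox proteins to which Meis2 belongs, all 11 had H3K4me3 in both libraries, beside 56.3% of all starts, 8 had H3K4me3 only, beside 37.4%, and 1, Tgif1, had both marks, beside 8.05%.

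Markers of most other cell types often lacked both marks at their starts, with the endothelial list nearest to all genes. Neither mark was present at 14 of 16 myeloid and lymphoid, 9 of 12 fibroblast, 5 of 12 endothelial, 10 of 16 alveolar and airway, 12 of 15 hepatocyte and 6 of 8 red blood cell markers, beside 35.7% of all starts. Genes with no peak of either mark within 1 kb of a start included Ptprc, Col1a1, Pecam1, Sftpb, Alb and Hba-a1. Within 50 kb, Pecam1 had 7 H3K4me1-only regions, Sftpb 2 and Col1a1 1, while Ptprc, Alb and Hba-a1 had none. Other markers had peaks in both libraries of a mark. Tek, Scgb1a1 and Ttr had H3K4me1 only, and Kdr, Erg, Egfl7, Hopx, Apoa2 and Klf1 H3K4me3 only. Sftpc and Abca3 had H3K4me3 in both libraries and H3K4me1 in 1. Cd4, Cd68, Pdgfra, Fn1 and Foxj1 had both marks. Of the last, Fn1 had 68.0, 113 and 75.8 TPM in PRMK, and at most 2.63 TPM in the separately scaled scrambled-guide table, and Cd68 32.1, 36.8 and 41.5 TPM and at most 3.81 TPM. The part of other cells in these values was not tested. Germline genes, whose promoters are normally silenced by DNA methylation, had neither mark at 12 of 14 starts.

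The classes were also read in lung PRM, the tumours with the same other guides and Myc vector and no Kmt2c guide, in 2 libraries of each mark. PRMK held 18219 H3K4me1-only, 7818 H3K4me3-only and 3963 both-mark regions, against 17893, 9751 and 3886 in PRM. Of the PRMK H3K4me1-only regions, 46.5% were in the same class in PRM and 36.1% had no peak there. Of H3K4me3-only regions, 85.1% were in the same class in PRM and 1.69% had no peak. Of regions with both marks, 64.9% had both in PRM, 17.8% had H3K4me3 only and 0.908% had H3K4me1 only. The shares at gene starts had the same order in both genotypes, at 4.99%, 82.6% and 72.4% in PRMK and 3.44%, 79.8% and 68.7% in PRM. Each share was higher in PRMK. The narrower peaks of PRMK H3K4me1 replicate 2 enter each of these shares.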

How the data were processed

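The authors aligned CUT&Tag reads to mm10 with Bowtie2 and called peaks with SEACR, per the submitters' processing notes, and the file names call them stringent. The control used for calling and the depth of the libraries are not given in the sources used here. Each deposited list gives the total and the highest signal over a peak, and signal was compared only within a library. The deposited ATAC peak lists carry a score from a caller not given in the sources used here, and only positions were used. RNA reads were aligned by the authors with STAR 2.6.0a, per the submitters' processing notes, and the deposited values used were raw counts per gene, with totals of 18524493 to 24389041 per library.

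A level per length was planned from exon lengths, which were not in hand. TPM was recomputed instead to a fixed sum of 1000000, from the counts and the gene length implied by the TPM columns that the authors deposited for the added-guide libraries, since those columns sum to 144671 to 173014. That length is not stated, and 261 genes of the PRMK table had none. The PRMK table lists 15479 genes and that of the added-guide libraries 51912, so levels of the tables differ in scale and are only set side by side.

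Peaks on mitochondrial DNA, 1 in each of the 4 lists, were left out. Regions, windows of 1 kb around starts and shares were computed in Python 3.11.15 with numpy 2.4.6 and pandas 2.3.3, and figures with matplotlib 3.10.9. Region building was tested on simulated peaks. Starts and promoters came from RefSeq on GRCm38.p6, the assembly of mm10, with 17492 of 21887 protein-coding genes in the promoter table. No statistical test was run. Named regions are the 8 strongest by the mean within-library rank of total signal and the 5 widest of each class, and named genes are the drivers and up to 4 members of each list and class by the same rank. An edited gene and some list members are counted but not reported here by name. Other members named were chosen after their values were seen. The members, 21 gene lists (463 of 464 genes matched) and rules were chosen with earlier results of these data known. Alternatives covered joining, overlap, peak number, bins, windows, gene sets, RNA libraries and each replicate left out.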

Additional observations from a re-analysis of the deposited data

How the results depend on the processing

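Of 175 values recomputed under another setting, 101 stayed within their spread or within 1.5 times of a count and 74 moved. Where a value is the mean of 2 libraries, leaving 1 out returns the value of the other. That value lies within their spread by construction, so these cases among the 101 do not measure stability. ATAC in H3K4me1-only regions counted as unmoved, at 12.5% as a mean and 0.148% without ATAC replicate 2. No class changed its position relative to gene starts: under every setting run, H3K4me1-only regions had the lowest share and the H3K4me3-bearing classes the higher ones. Leaving out a library gave 18347 to 30199 H3K4me1-only regions, with 30199 without H3K4me1 replicate 1 and 30115 without H3K4me1 replicate 2. With only the peaks at or above the median signal of their library there were 11484 H3K4me1-only, 5091 H3K4me3-only and 1476 both-mark regions. With 14561 peaks in each library there were 8104 H3K4me1-only and 2142 both-mark regions. Asking peaks to cover at least 25% of a region left 2599 with both marks. In bins of 500 bp the counts were 116467, 70315 and 16651, which count bins and not regions.

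The median width of H3K4me1-only, H3K4me3-only and both-mark regions ranged from 1383 to 3484, 3167 to 3857 and 5943 to 7594 bp when a library was left out. With equal peak numbers these were 5231, 3956 and 10518 bp, so H3K4me1-only regions then stood above H3K4me3-only regions. With peaks up to 1000 bp apart joined, H3K4me1-only regions had 3665 bp and both-mark regions 8865 bp. The mean of the median peak widths with equal numbers was 3904 bp for H3K4me1 and 3637 bp for H3K4me3, so the order of the marks in width turned round. The peaks were kept by total signal, which adds up over width, so this setting cannot decide which mark has wider peaks.

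Shares at starts ranged from 3.73% to 5.61%, 75.1% to 82.7% and 61.7% to 75% when a library was left out. Within 2.5 kb of a start H3K4me1-only regions reached 7.07% and both-mark regions 73.8%. With all annotated genes the shares were 13.5%, 87.7% and 79.5%, and with the promoter table alone (chosen after seeing the data) 2.85%, 68.0% and 58.7%. The number of H3K4me1-only gene starts ranged from 572 to 958 and of both-mark starts from 1783 to 3839 when a library was left out, with the highest of both without H3K4me1 replicate 2. With equal peak numbers there were 287 and 839, and within 2.5 kb 3070 both-mark starts.

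RNA medians moved with the table. In H3K4me1-only, H3K4me3-only, both-mark and unmarked genes they were 0.120, 14.6, 11.5 and 0 TPM with the Meis2 guide and 0.107, 13.5, 10.7 and 0 TPM with the scrambled guide. Over genes of the PRMK table alone, a setting chosen after seeing the data, the scrambled-guide values were 0.313, 14.3, 11.9 and 0.204 TPM. With all genes of the PRMK table H3K4me3-only, both-mark and unmarked genes had 23.2, 26.5 and 1.20 TPM, and within 2.5 kb H3K4me3-only and both-mark genes had 22.0 and 32.7 TPM.

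KMT2C shares, averaged over its libraries, were 38.8%, 51.0% and 73.1% where peaks covered at least 25% of a region and 46.9%, 67.0% and 68.5% over the central 1 kb, a measure chosen after seeing the data. H3K4me2 in both-mark regions was 98.9% and 93.6% by these measures. The cause of these moves was not tested, beyond the fewer peaks or bases that a setting leaves by construction. No paired analysis was possible because no result comes from a test and the shared replicate numbers join libraries with different guides. Read depth of the peak libraries is unknown, which limits every statement that a peak is missing.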

Other observations

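The X chromosome held few H3K4me1 regions. It carried 0.977% of H3K4me1-only regions, 4.58% of H3K4me3-only regions and 0.908% of regions with both marks in PRMK, beside 4.41% of protein-coding genes. By library, 1.21% and 0.859% of H3K4me1 peaks and 2.85% and 3.01% of H3K4me3 peaks lay on it. In PRM the class shares were 1.79%, 3.76% and 1.13%, with 1.64% and 1.58% of H3K4me1 peaks and 2.84% and 2.69% of H3K4me3 peaks. The gap between the marks was thus present in both genotypes, and what it rests on was not tested.

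H3K4me1 replicate 1 held a set of peaks with very high signal. In 27 regions the highest signal was over 20 times the library median in every library with a peak there, and H3K4me1 replicate 1 was among those libraries in all 27. The other H3K4me1 library had a peak in 2 of them. Neither H3K4me3 library had one in any, but the rule largely fixes this. The highest signal of H3K4me3 replicate 2 was 3226 against a median of 216, so no region with its peak could pass. The region chr2:98666237-98667335, at 511 and 569 times the H3K4me1 medians, was left out because its H3K4me3 replicate 2 peak had 14.9 times. Most were narrow, such as chr5:114173099-114173187, 89 bp wide at 141 times the median of H3K4me1 replicate 1.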
